A study of Mus musculus with 48 samples.

Results

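The tubulin family was examined as the 10 genes Tuba1a, Tuba1b, Tuba4a, Tubb2a, Tubb2b, Tubb3, Tubb4a, Tubb4b, Tubb5 and Tubb6, chosen by gene symbol from the 54331 genes in the deposited tables. All 10 were found once each, and all 10 passed the filter on low counts in each of the 18 comparisons. The study measured RNA in the axons of mouse retinal ganglion cells, whose axons leave the retina and end in 2 brain regions, the lateral geniculate nucleus (LGN) and, beyond it, the superior colliculus (SC). In the EU libraries, 5-ethynyl uridine was injected into the eye to label new transcripts, and labelled RNA was captured from the target region. In the TRAP libraries, ribosome-bound RNA was captured from the same regions. The eye was sampled by flow sorting (FACS) and by immunopanning of retinal ganglion cells, with and without EU capture.

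The 48 libraries formed 15 groups. Wild-type, uninjured animals gave SC EU libraries at postnatal day 10 (P10, n = 3), at P10 with a chase of 4 days (n = 3), at P14 (n = 5) and at 8 weeks (n = 3). They also gave SC TRAP libraries at P10 (n = 3) and P14 (n = 5), LGN EU (n = 2) and LGN TRAP (n = 3) libraries at P14, and P14 eye libraries from sorted cells (n = 3), panned cells (n = 3) and panned cells with EU capture (n = 3). Libraries labelled fmr1ko, all uninjured and P14, came from SC EU, SC TRAP and sorted eye cells (n = 3 each). One group labelled sarm1ko was axotomized and taken as SC EU at P14 with a 7-day chase (n = 3). It differs from the P14 wild type in genotype, injury, chase and the days of age that the chase adds, so these cannot be told apart. The protocol in the labels pools the colliculi of 3 animals for EU capture. Nothing in the labels says that libraries of a group came from separate animals, so the p-values measure only the spread between these libraries. The drivers of the TRAP transgene and the cells taken by the sort were not stated in the sources used here. In bulk samples, fewer cells of a type and less RNA per cell cannot be told apart.

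Microtubules are built from dimers of an alpha- and a beta-tubulin, and each subunit is encoded by several genes, called isotypes. The isotypes differ most in their acidic C-terminal tails, which carry polyglutamylation and other modifications and face motors and severing enzymes. Tuba1a and Tubb2b are known as isotypes of developing neurons, Tubb3 is the classical neuronal marker, Tubb4a is abundant in myelinating oligodendrocytes and neurons, and Tubb5 and Tubb4b are widely expressed.

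The last 75 coding bases before the stop codon, which encode these tails, show how closely some of the genes match there. They are given on the mRNA strand from GENCODE M21 transcripts on GRCm38. Ends of 4 beta genes are shown: the near-identical pair Tubb2a and Tubb2b, and Tubb3 and Tubb4a, which differ from it. Capitals mark bases that differ from Tubb2a, or that face a gap, in an alignment of the whole coding sequences.
Tubb2a: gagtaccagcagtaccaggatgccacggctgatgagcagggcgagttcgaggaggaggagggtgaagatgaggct
Tubb2b: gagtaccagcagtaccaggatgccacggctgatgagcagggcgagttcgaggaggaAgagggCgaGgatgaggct
Tubb3: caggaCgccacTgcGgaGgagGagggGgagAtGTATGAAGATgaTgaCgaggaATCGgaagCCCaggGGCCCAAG
Tubb4a: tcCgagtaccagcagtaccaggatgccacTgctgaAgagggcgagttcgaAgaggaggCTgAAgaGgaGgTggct

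Tubb2b differed from Tubb2a at 3 of these 75 bases, whereas Tubb4a differed at 11 and Tubb3 at 34. Over the whole coding sequence the identity was 98.3% between Tuba1a and Tuba1b and 96.5% between Tubb2a and Tubb2b. Of all 31-base windows of the transcript, 78.6% in Tuba1a, 86.1% in Tuba1b, 56.4% in Tubb2a, 45.9% in Tubb2b and 70.4% in Tubb4b also occurred in a transcript of another gene. The largest partner of Tuba1a was Tuba1c and that of Tubb4b a pseudogene, Tubb4b-ps1. Tuba4a shared 51.8% of its windows, mostly with Stk16, and reads of such overlapping genes cannot be separated where strand is not kept. The share was only 3.26% in Tubb3, 1.87% in Tubb4a, 4.47% in Tubb5 and 3.94% in Tubb6. The division of reads between Tuba1a and Tuba1b, between Tubb2a and Tubb2b, and between Tuba4a or Tubb4b and their partners is therefore uncertain, while Tubb3, Tubb4a, Tubb5 and Tubb6 are counted almost free of overlap.

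In GRCm38 coordinates, Tuba1a (ENSMUSG00000072235) lies on chr15:98949837-98953703 and Tuba1b (ENSMUSG00000023004) on chr15:98931425-98934565, both on the minus strand. Tubb2a (ENSMUSG00000058672, chr13:34074274-34078007) and Tubb2b (ENSMUSG00000045136, chr13:34126748-34130466) are likewise minus-strand neighbours. Tuba4a (ENSMUSG00000026202) lies on chr1:75214228-75219865, Tubb3 (ENSMUSG00000062380) on chr8:123411424-123422015 and Tubb4b (ENSMUSG00000036752) on chr2:25222160-25224702. Tubb4a (ENSMUSG00000062591, chr17:57080066-57087782) and Tubb5 (ENSMUSG00000001525, chr17:35833921-35838306) share a chromosome, and Tubb6 is ENSMUSG00000001473.

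Estimated counts summed to between 2558141 and 48263706 per library (median 22212787). Some libraries stood apart. SC TRAP fmr1ko replicate 2 correlated with the sorted eye cells at 0.91 on average and with its group mates at 0.53, and its rod photoreceptor markers summed to 108823 CPM (counts scaled to library size) against 45.1 and 75.3 in the rest of the group. Panned RGC replicate 1 correlated with its group mates at 0.16, with a summed tubulin level of 64.5 TPM. Panned RGC EU replicate 1 was closest to the sorted eye cells (0.90), with rod markers at 104924 CPM. In the panned cells without EU capture, lens crystallins reached a median of 140413 CPM. Mitochondrially encoded genes took 47.3% and 42.3% of counts in panned RGC replicates 2 and 3. They took 55.2% and 46.5% in panned RGC EU replicates 2 and 3, and 40.0% in SC EU fmr1ko replicate 2. Fmr1, the targeted gene, was at 2.27 to 15.4 TPM in the SC EU libraries labelled fmr1ko and at 0 to 6.99 TPM in the 5 wild-type ones, so its RNA was not lower there. Sarm1 was at 0.795 to 7.63 TPM in the libraries labelled sarm1ko and at 4.80 to 39.6 TPM in P14 SC EU.

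Summed over the 10 genes, tubulin RNA was higher in wild-type SC and LGN libraries at P10 and P14 than in the eye. TPM corrects a transcript's abundance for its length and allows levels of different genes to be compared. The sum was 0.975% to 1.28% of TPM in SC EU at P10, 0.820% to 1.41% at P14 and 0.143% to 0.861% at 8 weeks. It was 1.36% to 1.77% in SC TRAP at P10, 1.12% to 1.70% at P14, 1.07% to 1.09% in LGN EU and 1.64% to 2.22% in LGN TRAP. The LGN TRAP libraries were the highest by median, and the lowest of their 3 values lay within the ranges of SC TRAP at both ages.

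The eye libraries were lower in this sum. Sorted wild-type cells held 0.403% to 0.484%, sorted fmr1ko-labelled cells 0.324% to 0.398%, panned cells with EU capture 0.108% to 0.335% and panned cells without it 0.00645% to 0.165%. All wild-type SC libraries at P10 and P14 and all LGN libraries lay above all eye libraries. The axotomized sarm1ko-labelled libraries, at 0.0897% to 0.390%, were in the range of the eye and below every P14 SC EU library. In those 3 libraries 27.4% to 48.5% of counts fell on an annotated ribosomal RNA gene, CT010467.1, against 0.101% to 33.7% in P14 SC EU, and this gene takes part of the TPM total. Mitochondrially encoded genes took 13.1% to 31.4% of counts there, against 0.407% to 2.51%. The plot of summed tubulin levels gives each library.

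**Figure D1:**
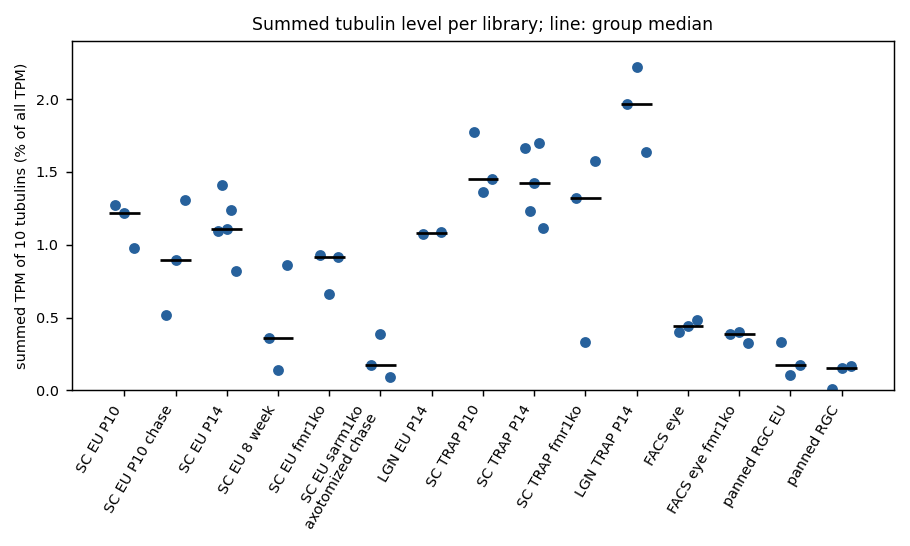
Summed TPM of the 10 tubulins as a percent of all TPM (y axis, linear from 0) in each of the 48 libraries, by group (x axis); points are libraries and lines are group medians. Wild-type SC libraries at P10 without chase and at P14 lie at 0.820% or above, and the 3 axotomized sarm1ko-labelled libraries at 0.390% or below.

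Within the family, the alpha-tubulins Tuba1a and Tuba1b together held a similar share in SC EU across ages. As a percent of the summed TPM of the 10 genes, the pair was at 47.7 to 49.9 at P10, 40.8 to 48.9 at P14 and 44.8 to 53.0 at 8 weeks, and these ranges overlap. The division within the pair moved: Tuba1a was at 36.3, 34.3 and 31.6 percent at P10, at 33.7, 26.4, 27.0, 27.5 and 27.5 at P14, and at 22.5, 23.7 and 18.4 at 8 weeks. Tuba1b went the other way, with 13.6, 13.4 and 17.5 at P10, 15.3, 14.4, 20.5, 18.8 and 19.5 at P14, and 29.6, 29.2 and 26.4 at 8 weeks. All 3 libraries at 8 weeks lay below all 5 P14 libraries for Tuba1a and above all 5 for Tuba1b. The shares are descriptions with no test, and for this pair they depend on how reads of near-identical transcripts were divided.

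Among the beta-tubulins, Tubb2a was the largest in SC EU at every age, with 15.9 to 20.2 percent at P10, 14.05 to 22.6 at P14 and 11.6 to 16.2 at 8 weeks. Tubb3 followed at P10 with 10.6 to 11.5 percent and lay at 5.39 to 9.49 percent at P14, with no overlap. The early isotype Tubb2b was at 5.34, 5.71 and 3.06 percent at P10, at 2.41, 5.69, 1.53, 1.26 and 1.96 at P14, and at 0.806, 0.691 and 0.665 at 8 weeks. Replicate 2 was the P14 library with a Tubb2b share as high as at P10, and every 8-week library was below every P14 library.

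Tubb4a showed the opposite course in SC EU. Its share was 1.94, 1.69 and 2.69 percent at P10, 6.50, 6.89, 6.85, 6.87 and 7.02 at P14, and 7.81, 8.71 and 7.69 at 8 weeks, so none of the 3 ages overlapped. Tuba4a, also low at P10, was at 1.93 to 2.62 percent there and at 4.57 to 5.69 percent at P14, again with no overlap. Tubb5 was at 8.55 to 9.10 percent at P10 and 4.43 to 5.83 in P14 replicates 3 to 5, but replicate 1 at P14 had 8.77. Of the 10 shares, 4 lay wholly above or below P10 in all 5 P14 libraries, and 8 did so in replicates 3 to 5 alone. The shares are parts of the same sum, so a change in a few moves the others, and they have no all-gene background. In scaled counts of replicates 3 to 5 against P10, 5 of the 10 genes did not overlap, beside 25.7% of all genes tested. Replicates 1 and 2 carry title codes of another series than the remaining SC EU libraries, and no P10 library has a code of that series.

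**Figure D2:**
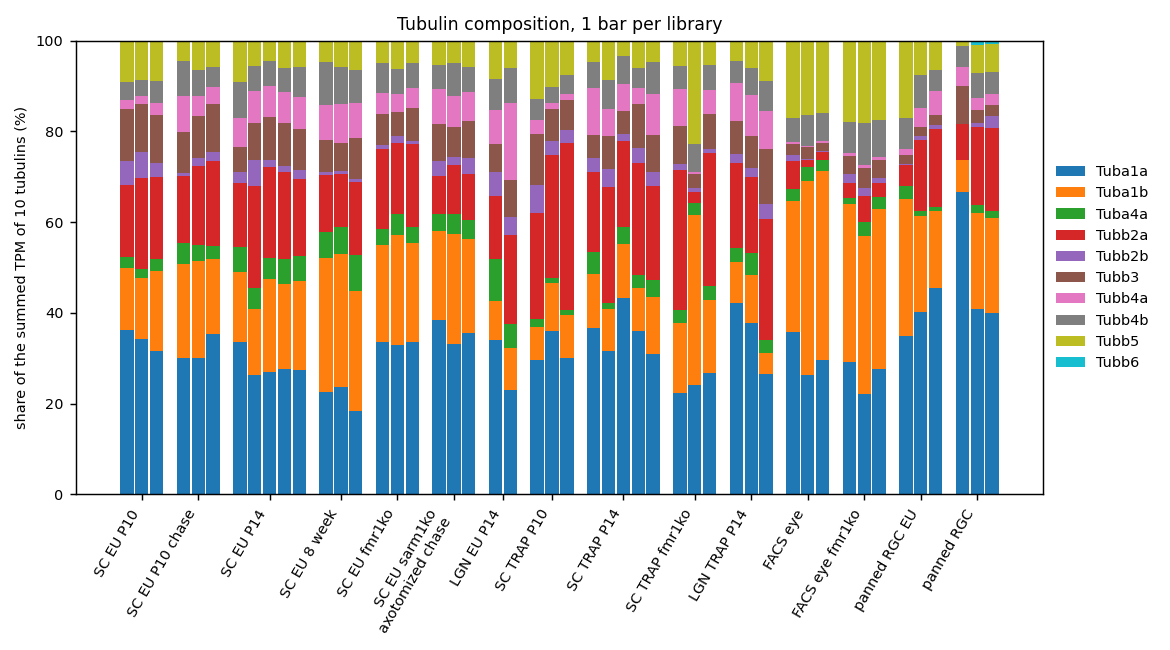
Share of each tubulin in the summed TPM of the 10 genes (y axis, percent) in each library, 1 stacked bar per library, by group (x axis). In sorted eye cells Tuba1b and Tubb5 take wide bands and Tubb4a at most 0.403%, whereas Tubb4a takes 6.50% to 7.02% in the 5 wild-type SC EU libraries at P14.

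**Figure D3:**
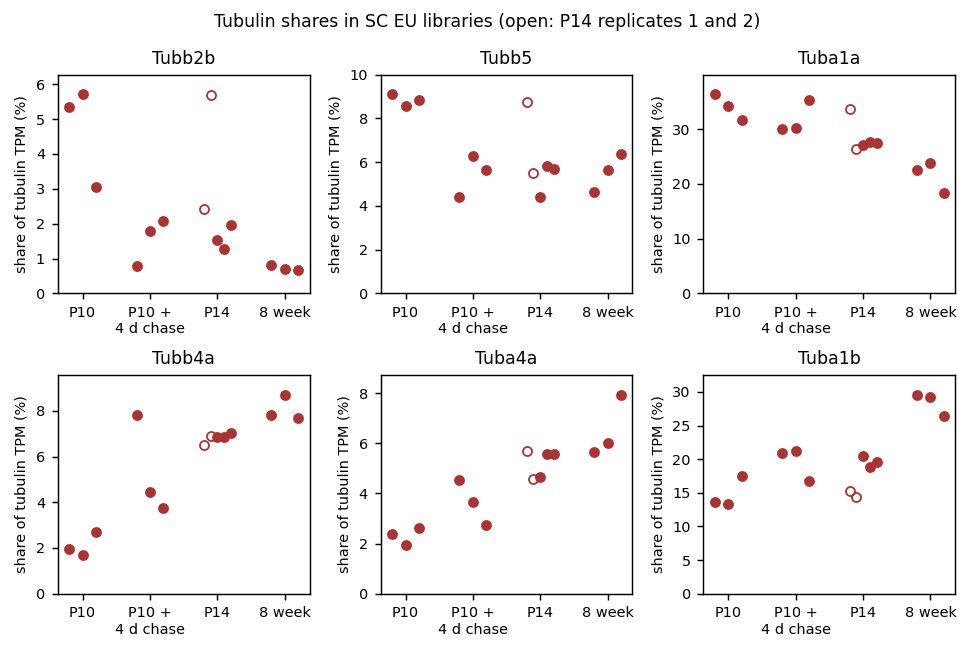
Shares of 6 tubulins (y axes, percent of the summed TPM of the 10 genes, each from 0) in SC EU libraries at P10, P10 with a 4-day chase, P14 and 8 weeks (x axes); each point is 1 library and open points are P14 replicates 1 and 2. Tubb2b and Tuba1a are lowest by median at 8 weeks, and Tubb4a and Tuba1b are highest by median there.

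Counts were tested between P14 and P10 in SC EU with edgeR's quasi-likelihood test over all genes, each comparison on its own, and a gene was called at a Benjamini-Hochberg adjusted p under 0.05. Tubb4a rose and Tubb2b fell, and the other 8 tubulins did not pass. In normalised CPM, Tubb4a was at 436, 384 and 396 at P10 and at 1178, 1507 and 997 at P14 (replicates 3 to 5). All P14 values lay above all P10 values. The log2 fold change was 1.60 ± 0.29 (SE, n = 3 and 3, edgeR adjusted p = 0.024).

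Tubb2b was at 1172, 1270 and 439 normalised CPM at P10 and at 257, 270 and 272 at P14. The groups did not overlap, and P10 replicate 3 was the nearest to P14. The log2 fold change was -1.85 ± 0.39 (edgeR adjusted p = 0.039). Tuba4a had a log2 fold change of 1.02 ± 0.29 and Tubb5 of -0.88 ± 0.33, and neither passed (edgeR adjusted p = 0.094 and 0.19). These 2 calls of 10 compare with 2.03% of the 16262 genes tested, and 5 of 10 tubulins had groups that did not overlap, against 25.7% of all genes. With all 5 P14 libraries neither gene was called, at 1.35 for Tubb4a (edgeR adjusted p = 0.34) and -1.47 for Tubb2b (0.43). Neither was called without P14 replicate 3, P14 replicate 4, P10 replicate 1 or P10 replicate 2, and 1 was called without P10 replicate 3. Over the 6 fits that each left out 1 library, the number of tubulins called ran from 0 to 3. These alternative fits stand without their share of all genes called. A loss of tubulin calls therefore cannot be told from a loss of calls in general.

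Markers of myelinating oligodendrocytes moved in the same comparison as Tubb4a. The summed level of the 8 myelin markers was 1516 to 3332 CPM at P10 and 8389 to 16216 at P14, with no marker at 0, and 4513 to 13029 CPM at 8 weeks. The sum of 7 astrocyte markers was 1354 to 3167 CPM at P10 and 2916 to 6349 at P14. Their part in the change of Tubb4a was not tested. Of the tubulin-related genes, the folding factors Tbca and Cct4 fell (2 of 20), the deacetylase Sirt2, also a myelin-associated enzyme, rose (1 of 23 modifying enzymes tested), and none of 11 genes of microtubule turnover or 6 other tubulins was called. Tbca had a log2 fold change of -2.66 ± 0.38 (edgeR adjusted p = 0.0085), and Sirt2 of 1.31 ± 0.29 (edgeR adjusted p = 0.047).

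The same age step was read in ribosome-bound RNA, where no tubulin was called. In SC TRAP, P14 against P10, 0 of 10 passed in edgeR, 3 had an unadjusted p under 0.05, DESeq2 called 1 and limma 0, and edgeR called 0% of all 15752 genes. The 3 were Tubb5 with a log2 fold change of -1.80 ± 0.51, Tubb2b with -1.25 ± 0.52 and Tubb2a with -1.24 ± 0.53 (edgeR adjusted p = 0.18, 0.30 and 0.32). The Tubb4a share in SC TRAP was 3.01, 1.33 and 1.33 percent at P10 and 10.4, 5.90, 5.83, 3.57 and 8.92 at P14, with no overlap. Myelin markers summed to 1575 to 3764 CPM in SC TRAP at P10 and 7173 to 27861 at P14, and their part in this share was not tested. The test of whether the TRAP to EU ratio differed between P14 and P10 called 0 of 10 tubulins and 0 of 18660 genes. In that test 0 tubulins had an unadjusted p under 0.05.

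The SC EU libraries with a 4-day chase were compared with those at P10. A chase adds days of age, so age and time since labelling cannot be told apart in this comparison. None of the 10 tubulins was called in edgeR, 3 had an unadjusted p under 0.05, DESeq2 called 2 and limma 0, beside 0.00597% of all genes in edgeR. Tubb2b was at 64.2, 243 and 393 normalised CPM after the chase and at 1400, 1499 and 497 at P10. The groups did not overlap, and the log2 fold change was -2.28 ± 0.60 (edgeR adjusted p = 0.16). Tubb5 had -1.41 ± 0.43 and Tubb3 -0.92 ± 0.41 (edgeR adjusted p = 0.17 and 0.27). The Tubb4a share after the chase was 7.82, 4.47 and 3.77 percent, above all 3 values at P10, where it was at most 2.69. Myelin markers summed to 6598 to 11523 CPM after the chase and 1516 to 3332 at P10, and their part in this share was not tested.

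From P14 to 8 weeks the EU levels of the 10 tubulins all had negative log2 fold changes, and none was called. In edgeR 1 had an unadjusted p under 0.05, DESeq2 called 1 and limma 0, beside 0% of all 16942 genes in edgeR. The median log2 fold change of the 10 was -0.92, against 0.13 over all genes tested. Tubb2b was the one with an unadjusted p under 0.05, at -2.21 ± 0.67 (edgeR adjusted p = 0.46). The 8-week libraries spread widely, with summed tubulin levels of 3627, 1429 and 8611 TPM. In the same order, mitochondrially encoded genes took 21.1%, 33.8% and 0.905% of counts, against 0.407% to 2.51% in P14 SC EU. CT010467.1 took 23.6% in replicate 2 and at most 0.855% in replicates 1 and 3, against 0.101% to 33.7% in P14 SC EU. The part of these shares in the summed levels was not tested. Without CT010467.1 and mitochondrially encoded genes, edgeR again called 0 of the 10, beside 0% of 17145 genes. Replicate 3 had the highest tubulin level, and without it 7 of the 10 were called lower, beside 18.1% of 18734 genes called in either direction in that fit. Over the 6 fits that each left out 1 library, the count ran from 0 to 7. The fit without replicate 3 is singled out by its tubulin level, after the data were seen. Its 7 calls are therefore no support for a fall with age.

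After axotomy in the sarm1ko-labelled animals, all 10 tubulins were lower than in P14 SC EU. Sarm1 encodes an NAD-consuming enzyme needed for injured axons to degenerate, and axons that lack it are known to persist for longer. In normalised CPM, Tubb2a was at 193, 324 and 204 in the axotomized libraries and at 1694, 2060 and 1125 in P14 replicates 3 to 5. No tubulin's groups overlapped. The log2 fold change of Tubb2a was -2.76 ± 0.37 (edgeR adjusted p = 0.0018), the most negative of the 10.

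Tubb3 was at 236, 241 and 201 normalised CPM against 966, 1227 and 731, with a log2 fold change of -2.11 ± 0.31 (edgeR adjusted p = 0.0022). Tuba1a was at 1048, 1149 and 840 against 2649, 3411 and 2102, a smaller fall at -1.43 ± 0.34 (edgeR adjusted p = 0.0097). Tubb2b fell least, from 189, 197 and 189 to 114, 80.2 and 105, at -0.94 ± 0.27 (edgeR adjusted p = 0.022). The other 6 had log2 fold changes between -2.41 for Tubb6 and -1.65 for Tuba1b, with Tuba4a at -1.94, Tubb5 at -1.77, Tubb4a at -1.75 and Tubb4b at -1.74. The Tubb2a share in the axotomized libraries was 8.25 to 10.9 percent, below the 14.05 to 22.6 percent of all 5 P14 libraries.

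The 10 calls lower of 10 compare with 20.8% of 17171 genes called lower and 37.6% called in either direction, and 57.8% of genes had groups that did not overlap. The median log2 fold change of the 10 was -1.76, against 0.16 over all genes. With all 5 P14 libraries 6 were called lower, beside 5.62% of genes called in either direction in that fit, and Tuba1a, Tuba1b, Tubb2b and Tubb6 were not. Without sarm1ko-labelled replicate 1 or replicate 3, 7 were called, beside 14.6% and 15.8% of genes. Summed markers of retinal ganglion cells moved with the tubulins, from 620 to 1294 CPM in the 5 P14 libraries to 84.8 to 307, with none of the 9 at 0 in the axotomized group and up to 4 at 0 in a P14 library. Markers of oligodendrocyte precursors went from 297 to 847 CPM to 55.4 to 214, and those of endothelial cells from 186 to 358 to 54.7 to 147, both without overlap. Astrocyte markers went from 2916 to 6349 CPM to 982 to 3109, midbrain markers from 98.5 to 228 to 24.1 to 123, microglial markers from 75.4 to 365 to 52.8 to 213 and myelin markers from 8389 to 16216 to 4062 to 13607, and these ranges overlapped. The marker sums are scaled to all counts of a library, whereas the tubulin values are normalised CPM. Mitochondrially encoded genes took 13.1% to 31.4% of counts in the axotomized libraries and 0.407% to 2.51% in P14 SC EU. The CT010467.1 share differed as well, as given above, so the marker falls include these changes in the total. The part of the markers in the tubulin result, and of these shares in the marker sums, was not tested.

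Other microtubule genes were mixed in that comparison. Of 20 folding factors 2 were higher and 8 lower, of 23 modifying enzymes 3 were higher and 8 lower, of 11 turnover genes 3 were lower, and of 6 other tubulins 2 were lower. The 2 were the gamma-tubulins Tubg1 (-2.33 ± 0.37) and Tubg2 (-2.45 ± 0.48), which nucleate microtubules (edgeR adjusted p = 0.0025 and 0.0048). The destabilizing stathmins Stmn3 and Stmn4 fell by 1.85 and 1.45 on the log2 scale (edgeR adjusted p = 0.0041 and 0.0072), and Sirt2 fell by 2.88 (0.0017).

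Set against the wild-type P10 chase, the group that also followed labelled RNA over days, the axotomized libraries had 4 tubulins called lower in edgeR. Tubb2a had a log2 fold change of -2.05 ± 0.42, Tubb3 of -1.56 ± 0.37, Tubb5 of -1.22 ± 0.39 and Tubb4b of -1.10 ± 0.33 (edgeR adjusted p = 0.0047, 0.010, 0.039 and 0.029). The other 6 fold changes were negative and did not pass. Among them were the alpha-tubulins Tuba1a at -1.06, Tuba1b at -1.01 and Tuba4a at -0.85 (edgeR adjusted p = 0.083, 0.070 and 0.062). In edgeR 7 of the tubulins had an unadjusted p under 0.05, DESeq2 called 7 and limma 6. The edgeR background was 11.3% of 17991 genes called lower and 21.2% called in either direction. Age, length of chase, genotype and injury all differ in this pair of groups. RGC markers summed to 759 to 1175 CPM after the P10 chase and 84.8 to 307 in the axotomized libraries, precursor markers to 473 to 507 and 55.4 to 214, and endothelial markers to 196 to 243 and 54.7 to 147. CT010467.1 took 0.310% to 9.46% of counts after the P10 chase and 27.4% to 48.5% in the axotomized libraries. Mitochondrially encoded genes took 2.58% to 11.8% and 13.1% to 31.4%, and the marker sums are scaled to all counts. The part of these in the result was not tested. The edgeR count was 1 without axotomized replicate 1 or 3, beside 8.11% and 8.21% of all genes called in those fits. It was 2 without chase replicate 2 or 3 (10.8% and 17.6% of genes), and 8 without chase replicate 1 (25.3%).

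**Figure D4:**
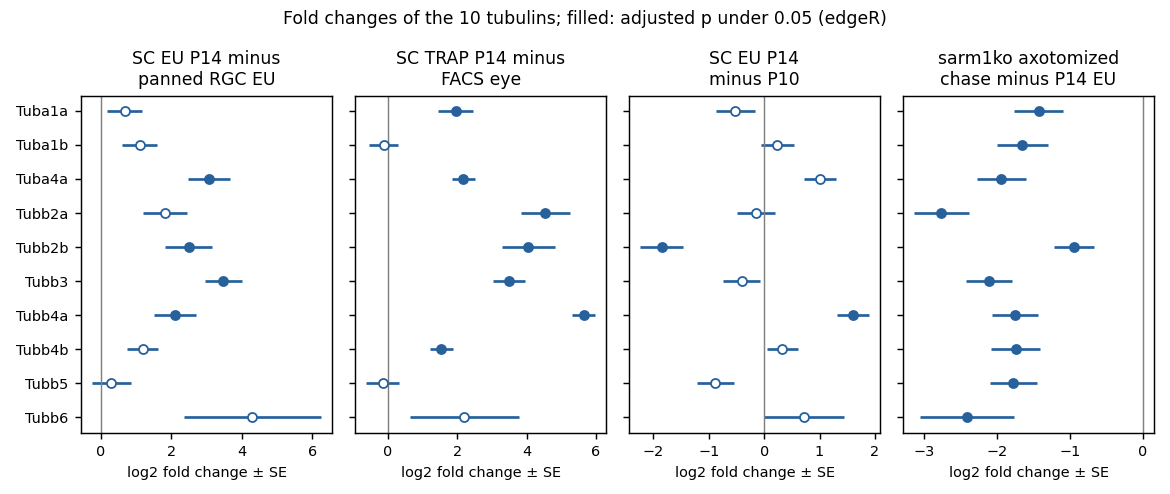
Log2 fold change with its standard error (x axes, own scale in each panel) of the 10 tubulins (rows) in 4 comparisons; filled points passed an edgeR adjusted p under 0.05. All 10 points are filled and negative in the axotomized comparison, and Tubb4a and Tubb2b lie on opposite sides of 0 between P14 and P10.

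The axon against soma comparison set SC EU libraries at P14 beside panned RGC EU libraries. Tubb3, Tuba4a, Tubb2b and Tubb4a were higher in the SC EU libraries. Tubb3 was at 943, 1177 and 760 normalised CPM in SC EU and at 81.2, 64.5 and 113 in panned RGC EU. The groups were far apart, with a log2 fold change of 3.47 ± 0.52 (edgeR adjusted p = 0.0040). Tuba4a was at 464, 641 and 449 against 106, 33.1 and 45.6, a log2 fold change of 3.08 ± 0.59 (edgeR adjusted p = 0.0094). Tubb2b had 2.49 ± 0.67 and Tubb4a 2.09 ± 0.60 (edgeR adjusted p = 0.028 and 0.034).

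Tubb5 overlapped between axon and soma, at 670, 1088 and 712 against 1120, 414 and 483 normalised CPM. The 4 calls higher of 10 compare with 11% of 15540 genes called higher and 22.4% in either direction, and 8 of 10 without overlap with 46.8%. Tubb3 and Tuba4a were the 2 still called once the trend with gene length was removed. Their log2 fold changes stayed above 0 under every alternative run but fell as low as 0.29 for Tubb3 and 0.37 for Tuba4a. The calls changed with the reference taken for the soma. Against sorted eye cells 7 were called higher, beside 35.5% of all genes called in either direction in that fit. Against panned RGCs without EU capture 0 tubulins and 0% of genes were called. Against their replicates 2 and 3, chosen after the data were seen, 7 were called lower beside 42.8% of genes, among them Tuba1b at -1.64, Tubb2a at -1.45, Tubb2b at -1.77 and Tubb4b at -1.36, while Tubb4a, at -0.09, was not called.

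Without 1 of SC EU P14 replicates 3, 4 or 5, or of panned RGC EU replicate 2, 2 tubulins were called, beside 5.6%, 5.45%, 11.9% and 15.2% of genes. Without panned RGC EU replicate 1 there were 8, beside 24.6%. The summed rod markers were 6684 to 104924 CPM in panned RGC EU and at most 25.0 in P14 SC EU, where up to 5 of the 6 were at 0 in a library. Myelin markers were 8389 to 16216 CPM in P14 SC EU and 24.4 to 86.5 in panned RGC EU, where up to 5 of the 8 were at 0, and RGC markers 620 to 1294 against 166 to 284. Midbrain markers summed to 98.5 to 228 CPM in P14 SC EU and 0 to 3.70 in panned RGC EU, so the SC libraries hold RNA typical of local cells. Markers of inhibitory neurons summed to 120 to 802 and 34.8 to 189 CPM, which overlapped. The part of all these markers in the axon to soma difference was not tested. Of the 20 folding factors 1 was called higher, 6 lower and 13 did not pass, beside 11.4% of all genes called lower. The chaperonin subunits Cct4 and Tcp1 had log2 fold changes of -6.63 ± 0.67 and -4.26 ± 0.53, and the prefoldin Vbp1 -5.56 ± 0.69 (edgeR adjusted p = 0.0018, 0.0024 and 0.0024).

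Ribosome-bound RNA captured from the SC was compared with sorted eye cells, and 7 tubulins were higher in SC TRAP at P14. Tubb4a was at 1342, 1111 and 1274 normalised CPM in SC TRAP (replicates 3 to 5) and at 25.6, 21.0 and 28.1 in sorted cells. The log2 fold change was 5.64 ± 0.33 (edgeR adjusted p = 0.00015), the highest of the 10. Tubb2a was at 2958, 5046 and 1954 against 262, 61.8 and 106, at 4.53 ± 0.70 (edgeR adjusted p = 0.0030). Tubb2b had 4.05 ± 0.77, Tubb3 3.49 ± 0.47, Tuba4a 2.17 ± 0.33, Tuba1a 1.95 ± 0.50 and Tubb4b 1.55 ± 0.33.

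The widely expressed Tuba1b and Tubb5 did not differ beyond their spread, with log2 fold changes of -0.12 ± 0.41 and -0.15 ± 0.47, and Tubb6 did not pass. The 7 of 10 compare with 22.2% of 17186 genes called higher, 44.5% in either direction. In sorted wild-type cells Tuba1b took 28.9 to 42.7 percent of tubulin TPM, Tubb5 15.9 to 16.9 and Tubb4a 0.298 to 0.403. Rod markers summed to 81133 to 147715 CPM in sorted cells and to at most 5.08 in SC TRAP at P14, where up to 5 of 6 were at 0. Myelin markers summed to 7173 to 27861 CPM in SC TRAP at P14, with none at 0, and to 27.3 to 50.1 in sorted cells, where up to 5 of 8 were at 0. RGC markers summed to 322 to 793 CPM in SC TRAP and 38.1 to 78.7 in sorted cells. Midbrain markers summed to 136 to 220 CPM in SC TRAP and 0 to 5.92 in sorted cells. Markers of inhibitory neurons summed to 226 to 587 and 1.46 to 8.75 CPM. The part of all these markers in the result was not tested. The stathmins Stmn4, Stmn3 and Stmn2 were higher in SC TRAP by 6.91, 5.50 and 5.28 on the log2 scale (edgeR adjusted p = 0.00018, 0.00092 and 0.00087), with 5 turnover genes higher and 2 lower.

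TRAP and EU captures of the target regions did not separate the tubulins in edgeR. In SC at P14, TRAP against EU, edgeR called 0 of 10 (1 with an unadjusted p under 0.05, DESeq2 0, limma 0) beside 14.4% of 16277 genes. At P10 edgeR called 0 (2 with an unadjusted p under 0.05, DESeq2 2, limma 1) beside 17.4%. The 2 were Tubb2a, at 1.40 ± 0.47, and Tubb6, at 2.20 ± 0.70 (edgeR adjusted p = 0.066 and 0.053). In the LGN edgeR called 0 (5 with an unadjusted p under 0.05, DESeq2 0, limma 0) beside 1.4%, although 9 of 10 had TRAP above EU without overlap, against 52.2% of all genes that did not overlap.

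One composition differed between the capture methods at both ages. The Tuba1b share was 9.16 to 12.7 percent in the 5 SC TRAP libraries at P14 and 14.4 to 20.5 in the 5 SC EU libraries, and 7.12 to 10.6 against 13.4 to 17.5 at P10. Of the 31-base windows of Tuba1b, 55.2% also occurred in another of the 10 tubulins and 66.8% in AC157548.1, so its share depends on how such reads were divided. The Tubb2a share was higher in TRAP at P10, at 23.5 to 36.6 against 15.9 to 20.2 percent. At P14 its ranges overlapped. The folding factors Cct4, Cct8 and Tcp1 rose in TRAP at P14, with log2 fold changes of 4.23 ± 0.53, 3.82 ± 0.58 and 2.15 ± 0.35 (edgeR adjusted p = 0.0026, 0.0045 and 0.0056).

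SC and LGN libraries were compared at P14 within the first code series. In EU, replicates 1 and 2 of SC against the 2 LGN libraries gave 0 calls in edgeR, 0 with an unadjusted p under 0.05 and 0 in DESeq2 and limma, beside 0% of 15448 genes. In TRAP the counts were the same for the tubulins, beside 0% of 15551 genes, and 9 of 10 had negative fold changes. The Tubb4a share was 7.46 and 16.8 percent in LGN EU and 6.50 and 6.89 in SC EU. In TRAP it was 8.36 to 9.01 percent in LGN and 10.4 and 5.90 in SC, on both sides of the LGN values.

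Libraries labelled fmr1ko were compared with wild type in 3 sample types. FMRP, the product of Fmr1, is an RNA-binding protein of axons and dendrites. In SC EU edgeR called 0 of 10 tubulins, 0 had an unadjusted p under 0.05, and DESeq2 and limma called 0, beside 1.11% of 16546 genes. In SC TRAP edgeR called 0, 1 had an unadjusted p under 0.05, DESeq2 called 1 and limma 0, beside 0% of 16115 genes. Leaving out replicate 2, which resembles sorted eye cells, also gave 0 calls among the tubulins, without the share of all genes called in that fit. Neither fit in SC TRAP therefore shows that the tubulins were unchanged. In sorted eye cells edgeR called 0, 2 had an unadjusted p under 0.05, DESeq2 called 1 and limma 0, beside 0.0593% of 15165 genes.

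Tubb3 in the sorted cells was at 158, 182 and 134 TPM in the fmr1ko-labelled libraries and at 96.4, 113 and 87.6 TPM in wild type. The groups did not overlap, and the log2 fold change of counts was 1.03 ± 0.23 (edgeR adjusted p = 0.13). As a share, Tubb4a was at 4.70, 3.83 and 4.39 percent in fmr1ko-labelled SC EU, below all 5 wild-type libraries at 6.50 to 7.02. Its counts overlapped between the groups, with a log2 fold change of -0.58 ± 0.31 (edgeR adjusted p = 0.29). The myelin markers summed to 7925 to 8861 CPM in the fmr1ko-labelled libraries and 8389 to 16216 in wild type. The Tuba1b share was 21.4 to 24.0 percent there, above the 14.4 to 20.5 percent of wild type. The other 8 of the 10 shares overlapped between fmr1ko-labelled SC EU and the 5 wild-type libraries. Shares are parts of the same sum and have no all-gene background. The test of whether the fmr1ko-labelled effect differed between TRAP and EU called 0 of 10 tubulins in edgeR, with 1 at an unadjusted p under 0.05 (Tuba1a, edgeR adjusted p = 0.16), beside 5.92% of 18561 genes. That fit included the outlying SC TRAP fmr1ko replicate 2. Without that library edgeR again called 0 of 10, beside 14% of 19738 genes, and Tuba1a had an edgeR adjusted p of 0.12.

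Within the eye, the sorted cells and panned RGC EU libraries gave 0 calls in edgeR, 2 with an unadjusted p under 0.05, 1 in DESeq2 and 0 in limma, beside 0% of 15694 genes. Tubb4a had the smaller p of these 2, at -3.37 ± 0.60 in sorted cells (edgeR adjusted p = 0.14), with groups that did not overlap. Without panned RGC EU replicate 1, 2 tubulins were called, beside 10.5% of genes. EU capture against no capture in panned cells gave 0 calls in edgeR, 1 with an unadjusted p under 0.05, 1 in DESeq2 and 0 in limma, beside 0% of 13360 genes.

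Across the 15 groups the neuronal isotypes ranked as follows by median TPM. Tubb3 was highest in LGN TRAP (1415 to 2010 TPM), followed by SC EU P10 (1034 to 1467). Then came SC TRAP fmr1ko with a median of 1103, SC EU P14 with 1043, SC TRAP P10 with 975, SC TRAP P14 with 904, SC EU P10 chase with 834, LGN EU with 776 and SC EU fmr1ko with 640, and the ranges of neighbours in this order overlapped. Medians below these were 253 in SC EU 8 week, 158 in fmr1ko-labelled sorted cells, 142 in the axotomized group, 96.4 in sorted cells, 41.3 in panned RGC and 39.2 in panned RGC EU. Of these lower neighbours, only sorted cells (87.6 to 113 TPM) and panned RGC (5.32 to 42.1) had ranges that did not overlap. Tubb6 was the lowest member, at most 35.5 TPM in any library.

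Tubb4a was highest in LGN TRAP, at 1369 to 2001 TPM, and lowest in sorted wild-type cells, at 14.4 to 16.2 TPM. In the outlying SC TRAP fmr1ko replicate 2 it was 8.83 TPM, against 1074 and 810 in the rest of that group. Over the 15 group means of log2(TPM + 1), the 3 genes most like Tubb4a among 8383 genes with a mean of at least 10 TPM were Zdhhc22, Slc6a17 and Scn2b (Pearson r = 0.99, 0.98 and 0.98). Those most like Tubb3 were Calm3, Mgat4b and Slc7a5 (0.99, 0.98 and 0.98), and those most like Tubb2b were Ccnd2, Mxra8 and Col1a2 (0.95, 0.95 and 0.95). For Tuba1a they were Tmem132a, Marcksl1 and Numbl (0.98, 0.97 and 0.96), for Tubb2a Fkbp1b, Tmem121 and Ralb (0.97 each), and for Tubb5 Nfkbib, Mvk and Med29 (0.97, 0.96 and 0.95). For Tuba1b they were Btbd2, Dusp8 and Msto1 (0.97, 0.97 and 0.96), for Tuba4a Dgkz, Larp1 and Psap (0.99, 0.98 and 0.98), for Tubb4b Bdh1, Wdr1 and Pim3 (0.98 each), and for Tubb6 Echs1, Cenpt and Gm15501 (0.90, 0.74 and 0.74). These correlations describe 15 points that share libraries, depth and the axon to eye contrast.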

How the data were processed

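The deposited tables give, for 48 libraries, estimated counts and TPM per gene, made by the authors with Salmon on mm10 per the submitters' processing notes; versions and annotation: not given in the sources used here. Libraries were made with a kit that cuts amplified cDNA, per the labels' protocols, and strand was taken as not kept. The deposited estimated counts were rounded and tested with edgeR 4.0.16 in R 4.3.3 (filterByExpr, TMM scaling, quasi-likelihood F test, Benjamini-Hochberg adjustment over all genes tested), each comparison fitted alone. Standard errors are the log2 fold change divided by the square root of F. For P14 SC libraries, the main fits used replicates 3 to 5, or replicates 1 and 2 against LGN, by the series of title codes. DESeq2 1.42.0 and limma 3.58.1 on log2(TPM + 1) and log2(TPM + 0.1) were alternatives, as were other scaling, no filter, removal of abundant RNA classes, removal of the trend with length, omission of each library, a replicate block and all 5 P14 libraries. The deposited TPM values gave shares and levels. Symbols matched 54097 of 54331 genes. The edgeR script was tested on simulated data: for the P14 to P10 comparison it recovered 24.1% of genes changed by 1.5 on the log2 scale and 98.8% of those changed by 3.

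The members and lists were chosen with earlier results of these data known. All 10 tubulins are named; from each of 4 tubulin-related lists at most the 3 called genes with the smallest adjusted p are named, and for each tubulin the 3 genes with the most similar group means. A digit of the title codes was tried as a replicate number, and no label says that it marks a shared animal, batch or day. With 3 pairs, no comparison had every correlation of deviations above 0.1 (for TRAP against EU at P14 they were -0.05, 0.26 and 0.22). SC against LGN had 2 pairs, with 0.31 and 0.31 in EU and 0.44 and 0.39 in TRAP. With 2 libraries on each side, the 2 EU values are equal by construction. The libraries were not treated as paired in the main fits, although these SC against LGN correlations were positive.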

Additional observations from a re-analysis of the deposited data

Results flagged for a closer look

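In the groups of 5 libraries, the highest and lowest level of each tubulin was compared with the gap to the nearest other library. Of 20 such sets of values, 2 had a library farther from the others than Dixon's 95% limit allows, and chance gives about 1 in 20. Tubb2b in SC EU P14 replicate 2 was at 800.2 TPM, against 265 TPM in the next library. Tubb3 in SC TRAP P14 replicate 4 was at 1623 TPM, against 914 TPM in the next library. No explanation was tested for either.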

How the results depend on the processing

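The number of tubulins called moved with the setting in most comparisons. The counts in this section stand without the share of all genes called in the same fit. They show how far the calls depend on the setting and are no result about tubulins against other genes. The same holds for the DESeq2 and limma counts given above, which stand beside edgeR shares. For axon against soma it was 8 with DESeq2, 9 with limma at either pseudocount, 2 with the length trend removed, 7 (higher) against FACS eye cells, and 0 and 7 (lower) against panned RGC without EU capture with all 3 libraries and with replicates 2 and 3. Fold changes that changed sign were, with all 3 panned libraries, Tuba1b -1.10, Tubb2a -0.90, Tubb2b -1.22 and Tubb4b -0.82, and with replicates 2 and 3, Tuba1b -1.64, Tubb2a -1.45, Tubb2b -1.77, Tubb4a -0.086 and Tubb4b -1.36. The cause was not tested. With DESeq2 the count was 2 for TRAP against EU at P10, 1 for P14 against P10 in TRAP, 1 for 8 weeks against P14, 2 for chase against P10, 7 for axotomized against chase, 1 for fmr1ko TRAP, 1 for fmr1ko sorted cells, 1 for sorted against panned EU and 1 for panned EU against panned. Without the filter it was 1 for TRAP against EU at P14, 2 at P10 and 3 in LGN, 2 for chase against P10, 1 for sorted against panned EU and 1 for panned EU against panned. For TRAP against EU at P10 it was 1 with RLE size factors, 1 with limma at either pseudocount and 2 without ribosomal and mitochondrial genes. For P14 against P10 in EU it was 1 with the length trend removed and 0 with all 5 P14 libraries, and for axotomized against P14 it was 6 with all 5.

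Leaving out 1 library at a time, the count ran from 2 to 8 for axon against soma, 0 to 7 for 8 weeks against P14, 0 to 3 for P14 against P10 in EU, 1 to 8 for axotomized against chase, 7 to 10 for axotomized against P14, 0 to 2 for sorted against panned EU, 0 to 2 for TRAP against EU at P10 and 6 to 7 for SC TRAP against sorted cells, and stayed at 0 in the others. With 1 library left in an arm, its spread was taken from the other groups. With a replicate block the count was 2 for P14 against P10 in EU, 10 for axotomized against P14, 3 for axotomized against chase, 6 for TRAP against sorted cells and 0 in the other 11 comparisons that allowed one. For the 124 fold changes with an unadjusted p of 0.05 or more, 175 of 1775 alternative values had the other sign. With 2 or 3 libraries a group, small fold changes lie within the spread between libraries.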
